A study of Mus musculus with 8 samples.

Results

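The genes described here are 31 genes of cholesterol synthesis, uptake and storage, picked by symbol from a table of 56748 mouse genes. All 31 were found in the table and all 31 passed the filter on low counts. RNA of whole adult testis was sequenced in 4 libraries labelled Ssty2 knockout (genotype Ssty2-/-) and 4 labelled wild type, and the comparison asks how transcript levels differ between the genotypes. Ssty2 is a multicopy gene of the mouse Y chromosome, and the series title speaks of a deletion of its repeats. The labels state no strain, no age beyond adult and no second allele or treatment, and do not say that the replicates came from separate animals, so that p-values reflect library-to-library spread only, part of which may be technical. The 31 genes form 4 groups: 7 early synthesis steps, 11 late synthesis steps, 5 sterol regulators and 8 genes of uptake, storage and transport.

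Cholesterol is built from acetyl-CoA. The early steps lead through mevalonate to farnesyl diphosphate, which also feeds other products, and the late steps turn it into squalene, lanosterol and cholesterol. Transcription of the pathway is driven by the SREBP factors, which SCAP escorts out of the endoplasmic reticulum when sterols are low and which the INSIG proteins hold back when sterols are high. In the testis, Leydig cells take up, store and make cholesterol for androgen synthesis, Sertoli cells handle lipid of germ cells they engulf, and germ cells make sterol intermediates of their own.

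Totals ran from 18036708 to 24415587 counts per library. Ssty2 had no count in any knockout library and between 45 and 83 counts in the wild-type libraries. Levels are given as CPM, meaning counts scaled to a common library size with TMM factors (trimmed mean of M-values), and differences as log2 fold changes of knockout over wild type with their standard error (SE) from edgeR's quasi-likelihood test. A gene is called when its p, adjusted by Benjamini-Hochberg over 21952 tested genes, is under 0.05. By this rule 53.5% of all tested genes were called, 26.2% higher and 27.4% lower in knockout, and for 46.7% the groups of libraries did not overlap. Scaling by library totals in place of TMM moved the median log2 fold change of all genes from -0.009 to -0.151, so small rises depend on the scaling.

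Of the 31 genes, 22 fell and 4 rose in knockout, and 5 were not called. Their median log2 fold change was -0.63, against -0.01 over all tested genes, and for 25 of 31 the groups did not overlap. The 4 that rose were Fdft1, Sqle and Cyp51, which act in the late synthesis steps, and Lipe, which releases stored sterol. The largest falls were those of Hsd17b7, Stard4, Msmo1 and Dhcr7, to 48.5%, 48.8%, 49% and 50% of the wild-type mean. The median size of the log2 change, sign aside, was 0.63 in the 31 genes and 0.35 over all tested genes. Leaving out single libraries gave 22 falls each time and between 2 and 5 rises, the 2 being found without knockout replicate 3 and without wild-type replicate 1 or 2.

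**Figure D1:**
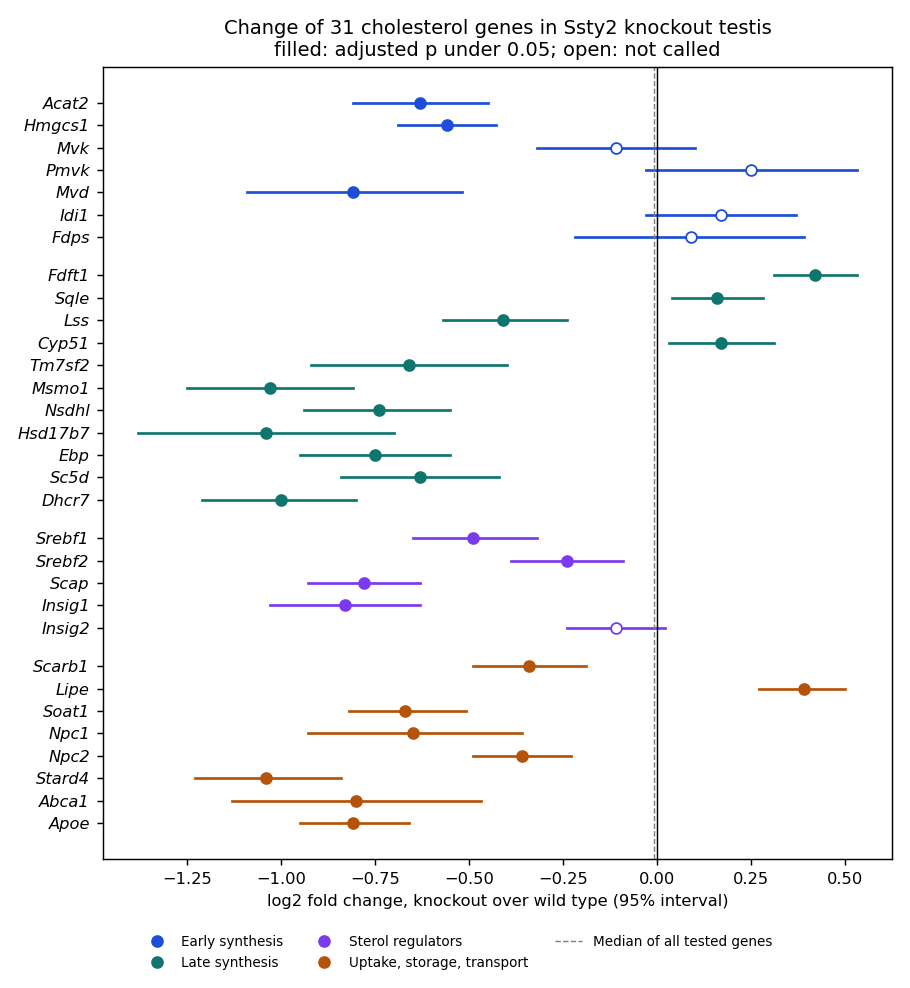
Log2 fold change of knockout over wild type for each of the 31 genes (points) with its 95% interval (lines), in pathway order; filled points were called and the dashed line is the median of all tested genes, -0.01. The late steps split between Fdft1, Sqle and Cyp51 to the right of 0 and 8 genes to the left, and Lipe stands alone to the right among the genes of uptake, storage and transport.

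Promoter sequences show what the synthesis genes hold in common at their starts. They were taken from RefSeq (GRCm38.p6), which listed 25 of the 31 genes, as windows of 250 bases before to 50 bases after each start. The letters CCAAT, on either strand, occurred in 20 of the 25 and in 41.1% of all 27025 genes listed. Among synthesis genes 14 of 15 held them, among sterol regulators 4 of 5 and among the genes of uptake, storage and transport 2 of 5. They occurred in 15 of 19 listed genes that fell, in 4 of 4 that were not called and in 1 of 2 that rose. The 2 that rose were Cyp51, which held the letters, and Lipe, which did not. Fdft1 and Sqle, which also rose, were not listed and so are missing from these counts. The sterol regulatory element core TCACNCCAC occurred in Hmgcs1 alone (1.44% of all genes), and the cAMP response element TGACGTCA in none of the 25 (2.03%). The GC box letters GGGCGG occurred in 23 of 25 (38.2% of all genes, 57.4% of those tested), and the E-box CACGTG in 7 of 25 (8.09%). Genes with several listed starts were counted once if any window held the letters. Letters in a window are a description and show no binding. Only these exact letters were searched, so a window without them may still hold a variant of the element.

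Windows of 4 genes are shown 5′ to 3′ on the gene's strand, an early step that fell, a late step that fell, a late step that rose and a regulator that fell, since each has 1 listed start. Capitals mark CCAAT, its reverse complement ATTGG, and in Hmgcs1 also TCACCCCAC. Base 251 is the start. Hmgcs1 lies at chr13:119690101-119690400 (plus strand), Msmo1 at chr8:64733529-64733828 (minus strand), Cyp51 at chr5:4104648-4104947 (minus strand) and Insig1 at chr5:28071162-28071461 (plus strand).
Hmgcs1: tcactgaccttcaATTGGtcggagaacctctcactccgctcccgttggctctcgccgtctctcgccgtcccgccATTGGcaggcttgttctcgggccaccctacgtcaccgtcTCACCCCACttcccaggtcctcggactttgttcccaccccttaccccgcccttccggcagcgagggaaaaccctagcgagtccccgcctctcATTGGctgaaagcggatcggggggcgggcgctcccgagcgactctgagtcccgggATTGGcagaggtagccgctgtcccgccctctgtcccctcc
Msmo1: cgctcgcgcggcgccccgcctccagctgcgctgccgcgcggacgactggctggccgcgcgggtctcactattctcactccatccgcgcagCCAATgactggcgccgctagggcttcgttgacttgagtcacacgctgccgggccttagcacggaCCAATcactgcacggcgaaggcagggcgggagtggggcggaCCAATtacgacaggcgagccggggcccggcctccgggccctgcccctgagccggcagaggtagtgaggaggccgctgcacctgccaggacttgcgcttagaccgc
Cyp51: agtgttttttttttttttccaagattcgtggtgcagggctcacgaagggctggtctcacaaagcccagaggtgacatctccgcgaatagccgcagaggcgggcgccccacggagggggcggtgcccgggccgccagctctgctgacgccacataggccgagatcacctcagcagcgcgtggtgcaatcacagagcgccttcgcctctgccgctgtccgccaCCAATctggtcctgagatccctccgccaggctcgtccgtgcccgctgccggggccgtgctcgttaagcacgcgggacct
Insig1: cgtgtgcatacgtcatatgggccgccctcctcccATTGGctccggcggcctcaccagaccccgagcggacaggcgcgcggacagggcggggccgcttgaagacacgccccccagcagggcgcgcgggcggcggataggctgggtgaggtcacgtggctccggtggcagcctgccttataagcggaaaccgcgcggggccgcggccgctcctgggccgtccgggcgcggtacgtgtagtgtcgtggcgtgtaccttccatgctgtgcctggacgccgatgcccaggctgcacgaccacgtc
Hmgcs1 held the letters at 4 places on the opposite strand, Msmo1 at 3 places on its own strand, and Cyp51 and Insig1 at 1 place each.

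The early synthesis steps were divided. Of the 7 genes, 3 fell, none rose and 4 were not called, with a median log2 fold change of -0.11. The 3 that fell encode the thiolase Acat2 and the synthase Hmgcs1, which open the pathway, and the decarboxylase Mvd. Hmgcs1 had 81.8, 81.2, 87.9 and 82.9 CPM in wild type and 52.1, 55.5, 61.4 and 57.2 CPM in knockout. Every knockout library lay below every wild-type library, and the mean went from 83.4 ± 3.03 to 56.5 ± 3.89 CPM (SD, n = 4 each; log2 fold change -0.56, SE 0.0625, adjusted p = 2.15e-06). An antisense transcript model, Gm48342, overlaps 12.1% of its exon bases and had 0.15 ± 0.124 CPM in wild type.

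Acat2, which encodes the cytosolic acetoacetyl-CoA thiolase, had 21.4, 19.1, 22.4 and 19.9 CPM in wild type and 14.0, 12.8, 13.7 and 13.0 CPM in knockout, with no overlap (log2 fold change -0.63, SE 0.0844, adjusted p = 1.3e-05). Its value is uncertain, because 43.7% of its 31-base words also occur in the paralog Acat3, and how reads that map to several genes were counted is not given in the sources used here. Acat3 fell as well, from 4.54 ± 0.804 to 2.47 ± 0.258 CPM. Mvd, the mevalonate diphosphate decarboxylase gene, had 7.36, 6.74, 7.75 and 7.84 CPM in wild type and 4.35, 4.93, 3.45 and 4.25 CPM in knockout, again with no overlap (log2 fold change -0.81, SE 0.135, adjusted p = 0.000112).

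The kinases, the isomerase and the prenyl synthase between and after these steps were not called. The log2 fold change of the mevalonate kinase gene Mvk was -0.11 (95% interval -0.32 to 0.1) and that of the phosphomevalonate kinase gene Pmvk 0.25 (-0.03 to 0.53). Idi1, the isopentenyl diphosphate isomerase gene, had 0.17 (-0.03 to 0.37), and Fdps, the farnesyl diphosphate synthase gene, 0.09 (-0.22 to 0.39). The groups overlapped for all 4, and the intervals leave room for changes of either sign. Without knockout replicate 1 Idi1 was called higher, at 0.23 (adjusted p = 0.0408), and with library totals Mvk was called lower, at -0.25 (adjusted p = 0.0416). Idi1 shares 27.1% and Fdps 27.9% of its words with other genes or gene models, so both are uncertain.

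The late steps were all called, 8 of 11 lower and 3 higher, with a median of -0.66. The 3 that rose, the squalene synthase gene Fdft1, the squalene epoxidase gene Sqle and the lanosterol demethylase gene Cyp51, were also, with Hmgcs1, the synthesis genes of highest length-scaled level in wild type. Fdft1 had 352, 308, 318 and 320 CPM in wild type and 438, 452, 424 and 424 CPM in knockout. All knockout libraries lay above all wild-type libraries, with means of 435 ± 13.6 and 324 ± 18.9 CPM (difference of 0.42 on the log2 scale, SE 0.0526, adjusted p = 6.82e-06), and with library totals the gene remained called at 0.28. Fdft1 shares 31.9% of its 31-base words with other genes and meets the opposite-strand gene Ctsb over 18.3% of its exon bases. The strand setting of the counting is not given, so the value of Fdft1 is uncertain. Ctsb, a lysosomal protease gene, went the other way, from 127 ± 10.7 to 68.2 ± 2.42 CPM (adjusted p = 2.26e-08).

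Sqle had 94.8, 102, 107 and 107 CPM in wild type and 108, 115, 118 and 118 CPM in knockout. The groups lay side by side without overlap (log2 fold change 0.16, SE 0.0574, adjusted p = 0.0269). Cyp51 had 103, 92.4, 110 and 97.1 CPM in wild type and 108, 110, 126 and 109 CPM in knockout, and here the groups overlapped (log2 fold change 0.17, SE 0.0671, adjusted p = 0.0437). Both rises were small and did not hold under every setting. With library totals neither was called, at 0.02 for Sqle (adjusted p = 0.816) and 0.03 for Cyp51 (adjusted p = 0.753). The Sqle call ended without knockout replicate 3 or 4 (adjusted p = 0.067 and 0.0649) and without wild-type replicate 1 or 2 (0.101 and 0.06), and also with no filter on low counts (0.0568). The Cyp51 call ended without knockout replicate 2 or 3 (0.0501 and 0.16) and without wild-type replicate 1, 2 or 4 (0.0612, 0.153 and 0.12).

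The steps after lanosterol demethylation fell one after another. Msmo1, Nsdhl and Hsd17b7 encode the oxidase, the dehydrogenase and the reductase that together remove further methyl groups from the sterol ring. Msmo1 had 28.7, 35, 37.6 and 33.4 CPM in wild type and 15.8, 13.7, 19 and 17.4 CPM in knockout (log2 fold change -1.03, SE 0.103, adjusted p = 6.98e-07). The X-linked gene Nsdhl had 15.9, 15.7, 16 and 16.3 CPM in wild type and 9.77, 10, 9.89 and 8.38 CPM in knockout (-0.74, SE 0.0918, adjusted p = 6.13e-06). Hsd17b7, the least abundant late gene per length, had 8.03, 7.3, 10.6 and 9.04 CPM in wild type and 5.37, 3.62, 4.59 and 3.38 CPM in knockout (-1.04, SE 0.161, adjusted p = 5.24e-05). In none of the 3 did the groups overlap, although the lowest Hsd17b7 value rested on 58 counts.

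Dhcr7, which encodes the reductase that yields cholesterol in the last step, had 33.4, 26.9, 36.5 and 33.8 CPM in wild type and 15.6, 14.9, 16.4 and 18.3 CPM in knockout. The mean was 50% of wild type (log2 fold change -1, SE 0.0976, adjusted p = 5.37e-07). The sterol isomerase gene Ebp, also X-linked, fell by 0.75 on the log2 scale, the sterol desaturase gene Sc5d by 0.63, and Tm7sf2, which encodes a reductase acting after Cyp51, by 0.66. Lss, the lanosterol synthase gene that lies between Sqle and Cyp51 in the pathway, fell by 0.41 (SE 0.0791, adjusted p = 0.000421), from 31.6 ± 2.03 to 23.8 ± 1.97 CPM. With TMM scaling the fall of Lss lay between the small rises of Sqle and Cyp51, which were not called with library totals. For all 8 genes that fell the groups did not overlap. Tm7sf2 shares 12.1% of its exon bases with the neighbouring gene Vps51 on the same strand (27.7 ± 0.795 CPM in wild type, 25.7 ± 0.462 in knockout).

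**Figure D2:**
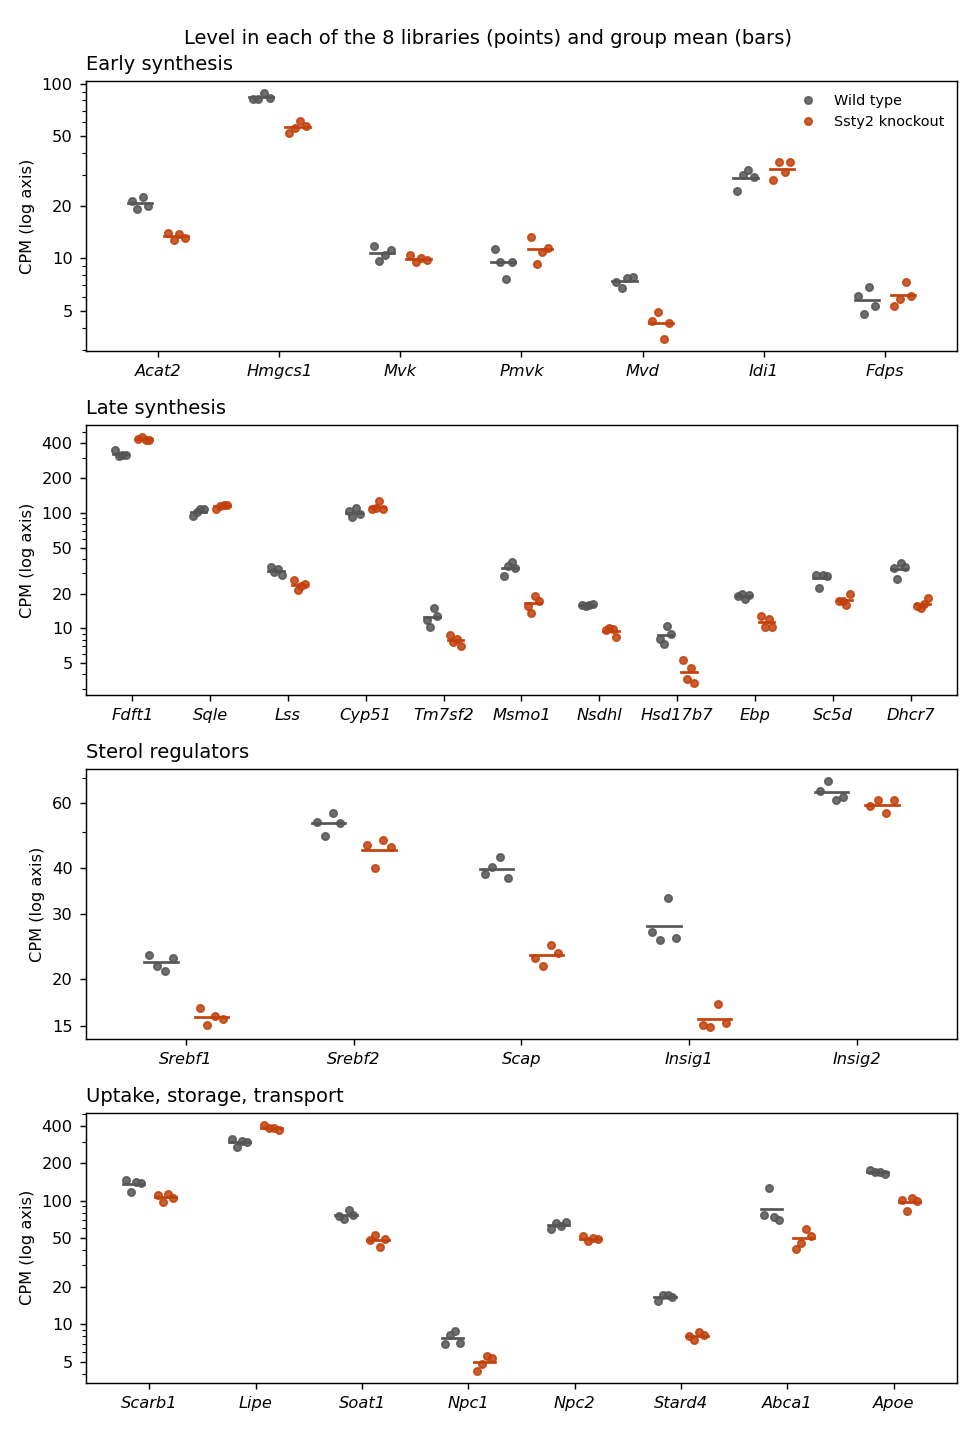
CPM on a log axis in each of the 8 libraries (points) with the group mean (bars), for the 31 genes in 4 panels. For Fdft1, Sqle and Lipe every knockout point lies above all wild-type points. Cyp51, Insig2 and the early genes Mvk, Pmvk, Idi1 and Fdps overlap between groups, and wild-type replicate 2 stands at 126 CPM for Abca1.

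Levels were compared between genes as CPM per kilobase of exon, with exon lengths from the GENCODE vM21 annotation. In wild type Fdft1 stood at 76.7 ± 4.48 CPM per kilobase, followed by Cyp51 at 22.8 ± 1.77, then Sqle at 18.5 ± 1.03 and Hmgcs1 at 18.2 ± 0.659, which did not differ beyond their spread. Every other synthesis gene was at 8.28 or less, Ebp being the highest of them and Fdps the lowest at 1.37 ± 0.209. In knockout Fdft1 rose to 103 and Hmgcs1 fell to 12.3 CPM per kilobase. The lengths cover all annotated exons of a gene and so understate the level of genes with many rarely used exons.

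**Figure D3:**
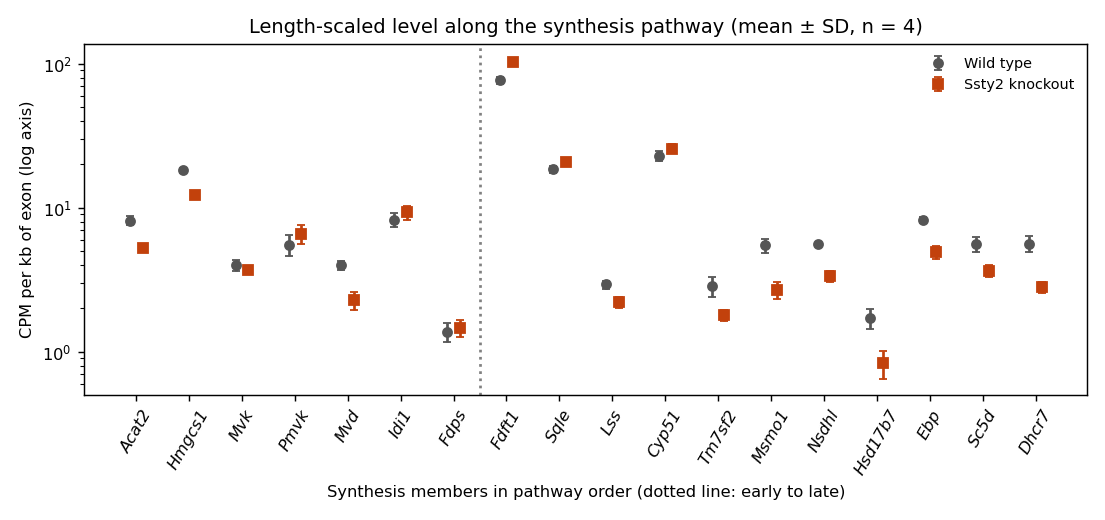
CPM per kilobase of exon on a log axis (mean ± SD, n = 4) for the 18 synthesis genes in pathway order, wild type beside knockout, with a dotted line between early and late steps. Fdft1 stands above all others in both groups, at 76.7 in wild type and 103 in knockout, and from Tm7sf2 to Dhcr7 every knockout mean lies below its wild-type mean.

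Ratios of counts within a library do not depend on the scaling between libraries. Fdft1, Sqle and Cyp51 together made up 73.2% to 75.3% of the late-step counts in the wild-type libraries and 85.4% to 87.2% in the knockout libraries. The other 8 late genes accordingly held 24.7% to 26.8% in wild type and 12.8% to 14.6% in knockout. With Fdft1, whose count is uncertain, left out of the late counts, Sqle and Cyp51 made up 52.4% to 53.7% in wild type and 66% to 69.4% in knockout. Early-step counts were 0.225 to 0.24 of the late-step counts in wild type and 0.166 to 0.181 in knockout. The late-step counts in this ratio include Fdft1, which alone made up 43.5% to 48.2% of them in wild type and 54.5% to 58.2% in knockout. The ratio is therefore uncertain too, and it does not stand for most genes. By gene, the median log2 fold change was -0.11 for early and -0.66 for late steps. Sqle counts were 2.84 to 3.81 times those of Dhcr7 in wild type and 6.41 to 7.71 times in knockout. The ranges of the 2 groups did not overlap in any of these ratios, which were formed after the gene values were seen and are given as a description.

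**Figure D4:**
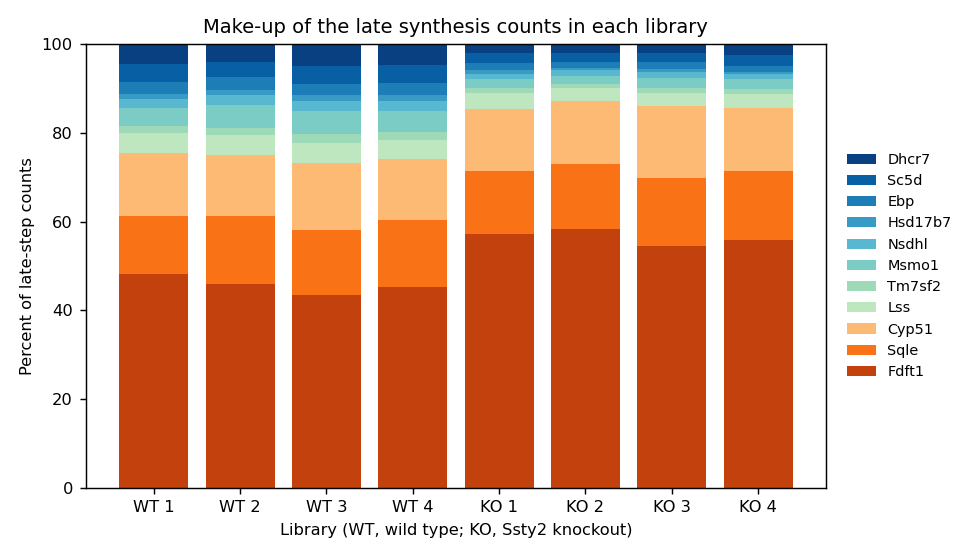
Percent of the late-step counts from each of the 11 late genes (stacked bars), for 4 wild-type and 4 knockout libraries. The orange part, Fdft1, Sqle and Cyp51, ends between 73.2% and 75.3% in wild type and between 85.4% and 87.2% in knockout.

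Of the 5 sterol regulators 4 fell and none rose, with a median of -0.49. Insig1, itself a target of SREBP, had 26.8, 25.5, 33.1 and 25.8 CPM in wild type and 15.1, 14.9, 17.2 and 15.3 CPM in knockout, without overlap (log2 fold change -0.83, SE 0.0946, adjusted p = 2.79e-06). Its paralog Insig2 had 64.5, 68.6, 60.9 and 62.0 CPM in wild type and 58.8, 60.9, 56.2 and 61.1 CPM in knockout, which overlapped. Insig2 was not called at -0.11 (95% interval -0.24 to 0.02), and with library totals it was called lower at -0.25 (adjusted p = 0.00248). Insig2 counts were 1.84 to 2.69 times those of Insig1 in wild type and 3.26 to 4.08 times in knockout.

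Scap, the escort of the SREBP precursors, had 38.4, 40.2, 42.9 and 37.6 CPM in wild type and 22.9, 21.8, 24.7 and 23.5 CPM in knockout (log2 fold change -0.78, SE 0.0719, adjusted p = 3.17e-07). The transcription factor gene Srebf1 fell from 22.2 ± 1 to 15.8 ± 0.704 CPM (-0.49, SE 0.0779). Srebf2, which encodes the factor most tied to sterol synthesis, had the smallest change of the 4, from 52.8 ± 3.22 to 44.8 ± 3.36 CPM (-0.24, SE 0.0711, adjusted p = 0.00958), or -0.38 with library totals. The groups did not overlap for any of these 3. Transcript levels say nothing of the cleavage by which the factors are activated.

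Of the 8 genes of uptake, storage and transport 7 fell and 1 rose, with a median of -0.66, and the groups overlapped for none. This set against synthesis, where 11 of 18 fell and 3 rose with a median of -0.60, shows falls in most genes of both, and the difference between the sets was not tested. Scarb1, the receptor gene that takes up sterol ester from high-density lipoprotein, had 146, 117, 141 and 138 CPM in wild type and 111, 97.8, 114 and 105 CPM in knockout (log2 fold change -0.34, SE 0.0706, adjusted p = 0.000704). Soat1, which encodes the acyltransferase that turns cholesterol into storable ester, had 75, 71.5, 83.5 and 76.4 CPM in wild type and 48.1, 53.0, 42.4 and 49.4 CPM in knockout (-0.67, SE 0.0733, adjusted p = 1.84e-06).

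Lipe encodes hormone-sensitive lipase, which splits the stored ester and has a testis form made in spermatids. It had 314, 269, 305 and 300 CPM in wild type and 409, 386, 383 and 374 CPM in knockout, higher in every knockout library (log2 fold change 0.39, SE 0.056, adjusted p = 2.94e-05), and 0.24 with library totals. The table counts whole genes, so the forms of Lipe cannot be told apart. An opposite-strand transcript, 4732471J01Rik, covers 15.6% of its exon bases and was also called higher in knockout, at 12.3 ± 1.84 against 8.75 ± 1.47 CPM (adjusted p = 0.00625). Lipe counts were 3.66 to 4.19 times those of Soat1 in wild type and 7.29 to 9.05 times in knockout.

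Inside the cell, Npc1 and Npc2 carry sterol out of the lysosome, and Stard4 moves it through the cytosol. Stard4 had 15.4, 17.4, 17.3 and 16.6 CPM in wild type and 8.11, 7.56, 8.66 and 8.21 CPM in knockout, 48.8% of the wild-type mean (log2 fold change -1.04, SE 0.0932, adjusted p = 2.43e-07). Npc1 fell by 0.65 on the log2 scale and Npc2 by 0.36. Both fell without overlap between groups, Npc1 from 7.81 ± 0.939 to 5 ± 0.598 CPM and Npc2 from 63.4 ± 3.5 to 49.5 ± 2.07 CPM.

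Apoe, the apolipoprotein gene with the highest length-scaled level of all 31 genes in wild type (79.5 ± 2.38 CPM per kilobase), had 176, 170, 171 and 163 CPM in wild type and 102, 82.0, 105 and 99.5 CPM in knockout (log2 fold change -0.81, SE 0.0688, adjusted p = 1.36e-07). Apoe and Fdft1 (76.7 ± 4.48) did not differ beyond their spread in wild type. In knockout they stood at 45.4 and 103 CPM per kilobase. The sterol exporter gene Abca1 had 76.4, 126, 73.2 and 69.7 CPM in wild type and 41.0, 45.3, 59.4 and 52.2 CPM in knockout (-0.80, SE 0.155, adjusted p = 0.000405). Wild-type replicate 2 stood apart, and without it the fall was 0.57 on the log2 scale and still called.

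Of 44 other genes of sterol metabolism 41 were tested, of which 6 rose and 20 fell, with a median of -0.27. With library totals 2 rose and 27 fell. Among the falls with the smallest p were those of Cyp11a1, the side-chain cleavage enzyme gene that opens steroid synthesis (-1), the lipoprotein receptor gene Lrp1 (-0.74), Mbtps1, a protease gene of SREBP activation (-0.51), and the mitochondrial thiolase gene Acat1 (-0.55). Among the rises they were the START-domain gene Stard6 (0.38), the ubiquitin ligase gene Rnf139 (0.31), the lipid droplet gene Plin2 (0.27), the oxysterol-binding protein gene Osbp (0.20) and Gramd1b, which encodes a sterol transfer protein (0.16). With library totals Plin2, Osbp and Gramd1b were not called (adjusted p = 0.176, 0.429 and 0.815). Soat2, Npc1l1 and Ch25h had too few counts to be tested. Cyp11a1 and Star belong both to these other genes and to the Leydig cell markers below, so the lists are not separate.

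Markers of several testis cell types moved in the same libraries. All 10 tested Leydig cell markers of 12 fell (median -0.98), and their summed level was 1900 to 2200 CPM in wild type and 1010 to 1120 CPM in knockout. Of 15 Sertoli cell markers 14 fell (median -0.63, summed 2240 to 2550 against 1530 to 1740 CPM). Of 10 macrophage markers 8 fell (median -0.59, summed 133 to 153 against 87.5 to 111 CPM). All 12 round spermatid markers rose (median 0.50, summed 2360 to 2640 against 3670 to 3780 CPM), and all 10 elongating spermatid markers rose (median 0.62, summed 14200 to 17500 against 22200 to 25400 CPM). With library totals 11 of the 12 round spermatid markers were called higher.

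Of 9 spermatogonial markers 1 rose and 6 fell, with a median log2 fold change of -0.78 and a summed level of 163 to 189 CPM in wild type and 107 to 115 CPM in knockout. Of 6 peritubular markers 5 fell and none rose, with a median of -0.54 and sums of 146 to 167 CPM and 91.6 to 115 CPM. Of 6 endothelial markers 2 fell and none rose, with a median of -0.27 and sums of 35 to 40.5 CPM and 30.3 to 36.9 CPM, which overlapped. Of 12 spermatocyte markers 3 rose and 4 fell, with a median of -0.14 and sums of 6840 to 7030 CPM and 7260 to 7780 CPM. The largest parts of these sums came from Ldhc (mean 3220 CPM in wild type, 3740 in knockout) and Ybx2 (1680 and 1980 CPM). Both were among the 3 that rose, so the sums do not stand for the list as a whole. Over all tested genes 26.2% were called higher and 27.4% lower. The spermatocyte calls in both directions and the endothelial falls lie near these shares. Of 7 epididymis markers 1 could be tested and was not called, and the defining markers Lcn5 and Lcn8 were near 0 (0.012 CPM each in wild type). CPM are relative to the rest of a library. In whole testis, fewer cells of a type, less RNA per cell and more RNA from other cells thus cannot be told apart. The part of cell make-up in the changes of the 31 genes was not tested.

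**Figure D5:**
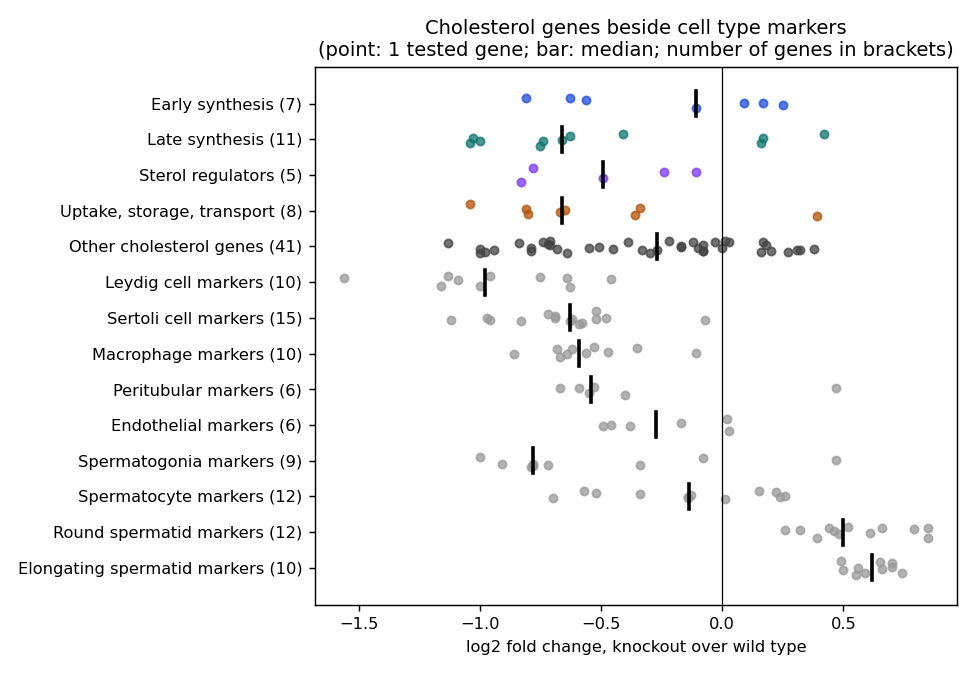
Log2 fold changes of knockout over wild type for each tested gene (points) with the list median (bars), for the 4 groups of cholesterol genes, 41 other cholesterol genes and 9 lists of cell type markers. The medians run from -0.98 for Leydig cell markers to 0.62 for elongating spermatid markers, with the late steps and the genes of uptake, storage and transport at -0.66. Cyp11a1 and Star are shown both among the other cholesterol genes and among the Leydig cell markers.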

How the data were processed

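RNA of adult testis was sequenced in 4 Ssty2 knockout and 4 wild-type libraries; TRIzol extraction, a DNase step and an Illumina TruSeq RNA kit are named per the labels' protocols. The authors deposited raw counts per Ensembl gene, whole numbers without normalization. FastQC, Trimmomatic, STAR, featureCounts and DESeq2 with build mm39 are named per the submitters' processing notes; not given in the sources used here are versions, annotation, strand setting and the treatment of multi-mapping reads.

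Genes were named from GENCODE vM21 and RefSeq (GRCm38), which also gave exon lengths, overlaps and promoter windows; this build differs from mm39, so no coordinates of the count table are given. The quasi-likelihood test of edgeR 4.0.16 (R 4.3.3) was run with 1 term, the genotype, after filterByExpr (minimum count 10, minimum total 15) and TMM scaling; this left 21952 of 56748 genes. P-values were adjusted by Benjamini-Hochberg over all tested genes and called under 0.05. The SE is the absolute log2 fold change divided by the square root of the F statistic. Shared sequence is the percentage of a gene's 31-base words found in another gene's transcripts. The fit was tested on simulated data. Alternatives were relative log expression factors, library totals, DESeq2 1.42.0, no filter, a filter of 50 counts in 4 libraries, a replicate block and leaving out each library.

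The genes and lists were chosen with earlier results of these data known. All 31 genes are named, with up to 5 other pathway genes per direction by smallest p; 1 gene that this rule picks is not reported here. Pairs of libraries within a group had chi-square values of 4.57 or more per degree of freedom, so none was a duplicate. Precision is given by the spread between libraries, which includes counting error.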

Additional observations from a re-analysis of the deposited data

Results flagged for a closer look

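Within a group of 4 libraries, 6 values stood apart from the other 3 by more than 0.829 of the group's range, out of 62 groups checked; chance gives about 1 in 20. Abca1 stood at 126 CPM in wild-type replicate 2, against 69.7 to 76.4 in the others. Sc5d stood at 22.4 CPM in the same library, against 28.3 to 29.3. Insig1 stood highest in replicate 3 of both groups, at 33.1 CPM in wild type against 25.5 to 26.8 and at 17.2 CPM in knockout against 14.9 to 15.3. Cyp51 stood at 126 CPM in knockout replicate 3, against 108 to 110. Nsdhl stood at 8.38 CPM in knockout replicate 4, against 9.77 to 10. The calls of Abca1, Sc5d, Insig1 and Nsdhl held without the library in question, and that of Cyp51 did not (log2 fold change 0.12, adjusted p = 0.16).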

How the results depend on the processing

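Of 434 single-gene values under the alternatives, 417 kept their direction and their side of the threshold. Of the rest, 12 lost a call, all of them of Sqle or Cyp51, 3 gained one (Idi1, Insig2 and Mvk) and 2 changed sign: Fdps, not called in either case, was -0.05 with library totals and -0.01 without knockout replicate 3 (-0.01 to 0.18 over the libraries left out). The number of the 31 genes that rose was 2 with library totals and 2 among the 23 genes with at most 10% of their words in another gene, a limit chosen after seeing the data, where 18 fell. Those 2 were Sqle and Cyp51, since Fdft1 (31.9% shared) and Lipe (12.9%) were set aside. Leaving out single libraries gave 2 to 5 rises among the 31 genes, 1 to 3 among the late steps and 0 to 1 among the early steps; with library totals 1 late gene rose. The 2 rises were found without knockout replicate 3 and without wild-type replicate 1 or 2. Over all genes, library totals gave 3848 higher and 8255 lower, so that 31.8% of calls were higher against 48.9% with TMM. Knockout and wild type share replicate numbers, but deviations of same-numbered libraries correlated at only 0.002 to 0.08, and 2 of 4 wild-type libraries correlated best with their own number, so the numbers were not taken to pair them. With a replicate block 22 of the 31 genes fell and 4 rose, and over all genes 5915 rose and 6203 fell. Genes with few counts, such as Hsd17b7 with 58 in its lowest library, are measured least precisely.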

Other observations

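Genes that encode START-domain proteins, which shuttle sterols and other lipids, went different ways; they are named here after their values were seen. Star, which feeds cholesterol into the mitochondrion for steroid synthesis, had 149 ± 36.6 CPM in wild type and fell to 68 ± 19 CPM in knockout (-1.13 on the log2 scale, adjusted p = 3.41e-05), and Stard5 from 10.5 ± 1.13 to 6.41 ± 0.627 CPM (-0.71). Stard6 rose from 346 ± 17.2 to 451 ± 28.4 CPM (0.38, adjusted p = 3.19e-05). Stard3, of late endosomes, was not called at -0.17 (adjusted p = 0.209). With library totals Star was at -1.27, Stard5 at -0.85 and Stard6 at 0.24, still called the same way, and Stard3 was called lower at -0.31.

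Of the GRAMD1 sterol transfer genes, Gramd1c had 106 ± 1.68 CPM in wild type and 119 ± 10.8 CPM in knockout (0.17, adjusted p = 0.0267) and Gramd1a 30.5 ± 1.12 and 27 ± 0.737 CPM (-0.17, adjusted p = 0.0381). With library totals Gramd1c was not called (0.03, adjusted p = 0.676) and Gramd1a was at -0.32. With DESeq2 Gramd1a was not called (adjusted p = 0.0575).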
